A study of Mus musculus with 10 samples.

Results

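Genes of the cell cycle and regulators of quiescence were followed in mouse hair follicle stem cells (HFSCs), the stem cells of the hair follicle bulge. The set has 44 genes, matched by symbol among the 37298 gene rows of the expression table, and all 44 were found. By role, 12 act in DNA replication and S phase, 12 in mitosis, 8 are G1 cyclins and cyclin-dependent kinases (CDKs), 6 are CDK inhibitors, and 6 are pocket proteins, E2F factors or Gadd45a. The study measured RNA in 4 HFSC libraries and SOX9 binding by chromatin immunoprecipitation (ChIP-seq) in 2 HFSC libraries and 1 library of interfollicular epidermis (IFE), the epidermis between follicles. SOX9 is an HMG-box transcription factor that HFSCs express.

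All RNA libraries came from HFSCs sorted from telogen back skin as integrin α6hi, CD34+, ScaI- and YFP+, on a strain background labelled "C57BL6, mixed". Animals of both genotypes received RU486, which activates the Cre recombinase CrePGR. The promoter that drives CrePGR and the source of YFP are not named in the labels. The cKO libraries are labelled "Sox9 Knock out". The control libraries are called Het in their titles and wild type in their genotype field. Replicate 1 of each genotype came from males at P75, treated on days P48 to P61, and replicate 2 from females at P80, treated on days P53 to P66. Sex, age and treatment days therefore cannot be told apart. Whether each library pools several mice is not stated, and p-values thus reflect only the spread between these 4 libraries. ChIP cells came from untreated CD-1 females of P52 to P60, sorted as integrin α6hi, CD34+ and ScaI- for HFSCs and without CD34 for IFE.

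Cells enter the cycle when D-type cyclins bind CDK4 or CDK6 and phosphorylate RB1 and its relatives, the pocket proteins. Phosphorylation frees E2F factors, which then drive genes of DNA replication. In resting cells, the pocket proteins RBL1 and RBL2 act with E2F4 to hold replication and mitotic genes low. CDK inhibitors of the CIP/KIP family (among them Cdkn1b and Cdkn1c) and the INK4 family (Cdkn2a to Cdkn2d) block the kinases. Telogen is the resting phase of the hair cycle, in which bulge cells rarely divide.

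Expression is given as FPKM (fragments per kilobase of transcript, scaled to the mapped fragments of the library), so levels can be set side by side between genes. The values added up over all genes to 584125 (cKO) and 555420 (control) for replicate 1, and to 903766 and 786914 for replicate 2. The depth in reads is unknown, because low values shared no common step. Libraries of the same number correlated at 0.982 and 0.976 across tested genes on the log2 scale, and libraries of the same genotype at 0.916 and 0.913. Sox9 stood at 71.3 FPKM in cKO 1, 82.7 in control 1, 80.5 in cKO 2 and 46.5 in control 2. It was thus not lower in both libraries labelled cKO, and cKO below means labelled so. The FPKM covers the whole gene and does not isolate the deleted part. Among markers fixed for the cell types, all 8 bulge markers were tested, and their sum lay between 9667 and 11649 FPKM, of which Krt15 held 8703 to 10894. Lhx2, a bulge transcription factor, stood at 114 (cKO) and 359 (control) in replicate 1 and at 87.1 and 195 in replicate 2. Of the 8 only Lhx2 was called between genotypes, with the replicate block (difference -1.4, limma adjusted p = 0.0273) and not without it. The sum of 4 endothelial markers was at most 0.411, and that of 5 melanocyte markers at most 2.50. Wherever 4 values follow, they stand for cKO and control of replicate 1, then cKO and control of replicate 2. Differentiated epidermis markers summed to 2512, 2651, 4669 and 7293 FPKM.

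Mitotic genes were low in every library, and G1 genes ranged from below the filter used for testing to among the highest genes. The median member stood at 4.81, 4.30, 5.58 and 4.32 FPKM, against 12.2, 12.7, 11.2 and 11.3 for the 14455 genes with a mean of at least 1 FPKM, the genes tested. Of the 44 members, 40 had such a mean. Bub1, Plk1, Ccne1 and Cdkn2a did not. The 12 mitotic genes summed to 24.9, 23.6, 37.5 and 30.5 FPKM. Cdk4 alone was several times higher, at 123, 117, 230.3 and 179 FPKM.

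**Figure D1:**
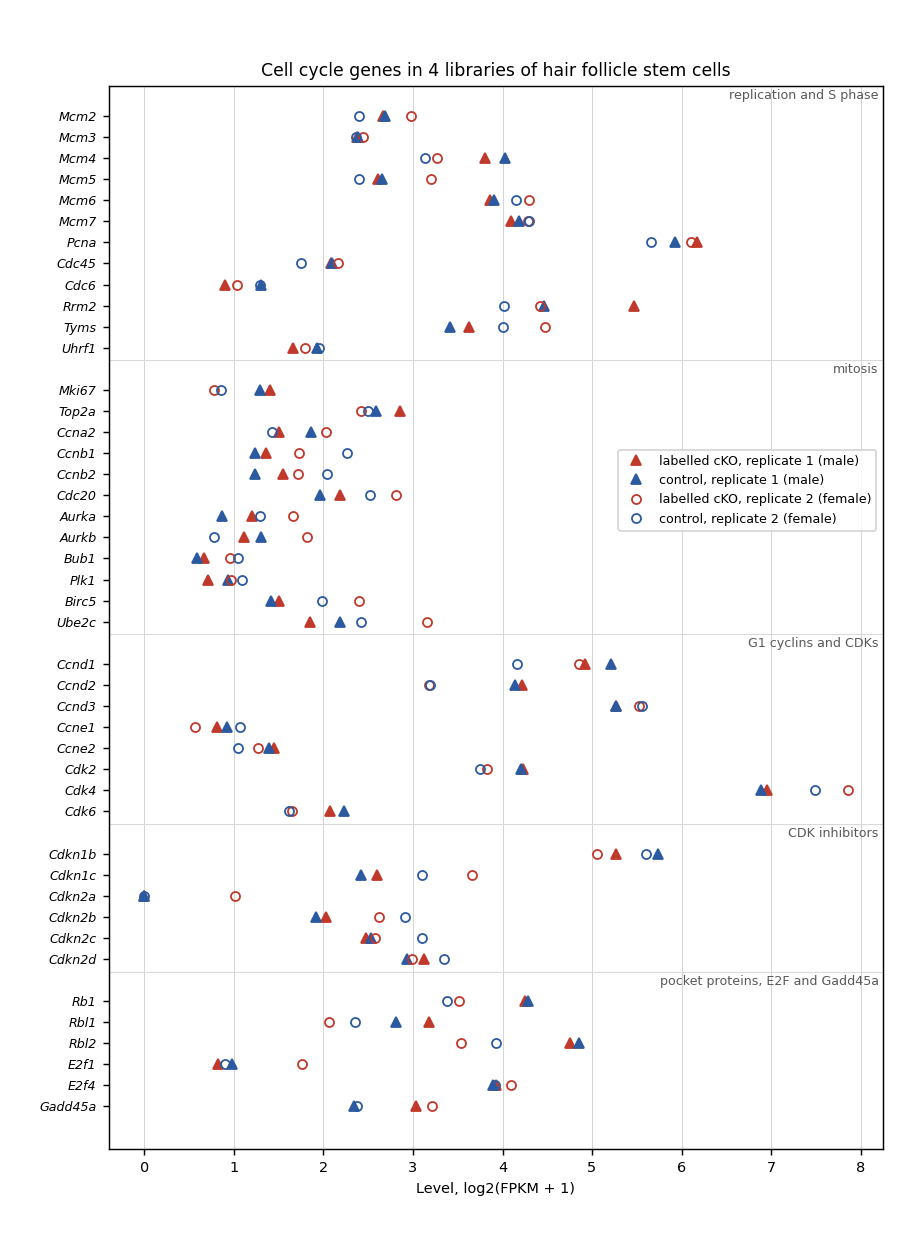
Level of each of the 44 cell cycle genes in the 4 RNA libraries, as log2(FPKM + 1) on the x axis, with genes grouped by role. Triangles are replicate 1 (male) and circles replicate 2 (female), red the libraries labelled cKO and blue the controls. The 12 mitotic genes all lie to the left, at 7.90 FPKM or less, and Cdk4 lies farthest to the right.

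Replication genes were led by Pcna, Rrm2 and Mcm7. Pcna, the sliding clamp of DNA polymerases, stood at 71.1, 60.0, 67.8 and 49.6 FPKM, a mean at the 87.3 percentile of tested genes. Rrm2, the regulatory subunit of ribonucleotide reductase, stood at 43.3, 21.0, 20.4 and 15.1 FPKM, with cKO 1 apart from the other libraries. The MCM genes encode the subunits of the replicative helicase. Mcm7 stood at 16.1, 17.2, 18.4 and 18.7 FPKM, Mcm6 at 13.5, 14, 18.6 and 16.7, and Mcm4 at 13.0, 15.3, 8.65 and 7.80. These 3 subunits of 1 complex were thus of like level in replicate 1 and apart in replicate 2, where Mcm4 was the lowest of them. Mcm2, Mcm3 and Mcm5 ranged from 4.13 to 8.21 FPKM over the 4 libraries. Tyms, thymidylate synthase, stood at 11.3, 9.66, 21.3 and 15.1 FPKM, with both replicate 2 libraries above both of replicate 1. Uhrf1, which keeps DNA methylation through replication, stood at 2.17, 2.81, 2.46 and 2.86 FPKM. Cdc45, part of the active helicase, lay between 2.37 and 3.47 FPKM. Cdc6, which loads the helicase at origins, stood at 0.865, 1.46, 1.05 and 1.46 FPKM, with both cKO libraries below both controls.

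Among mitotic genes, the highest were Top2a, Ube2c and Cdc20. Top2a, the topoisomerase that untangles sister chromatids, stood at 6.21, 5.03, 4.35 and 4.67 FPKM, a mean at the 26.4 percentile of tested genes, the highest of the 12. Ube2c and Cdc20 work with the anaphase-promoting complex, which marks cyclin B for destruction. Ube2c stood at 2.6, 3.55, 7.90 and 4.36 FPKM and Cdc20 at 3.56, 2.90, 5.99 and 4.73. Both were higher in replicate 2 than in replicate 1, with no overlap. Mki67, the Ki-67 proliferation antigen, went the other way, at 1.64, 1.45, 0.712 and 0.809 FPKM. Birc5 (survivin) stood at 1.84, 1.67, 4.28 and 2.97 FPKM and Ccnb1 (cyclin B1) at 1.56, 1.35, 2.32 and 3.78. Ccnb2 (cyclin B2) stood at 1.92, 1.35, 2.29 and 3.11 FPKM. For these 3 genes too, replicate 2 lay above replicate 1. Ccna2, Aurka and Aurkb ranged from 0.710 to 3.08 FPKM. The spindle checkpoint kinase gene Bub1 (0.590, 0.508, 0.944 and 1.06 FPKM) and the mitotic kinase gene Plk1 (0.639, 0.915, 0.95 and 1.13) were near the filter of 1 FPKM.

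Mitotic promoters often carry CCAAT boxes and the cell cycle genes homology region (CHR), the element through which complexes of RBL2 and E2F4 hold such genes low in resting cells. The 250 bases before the start of 4 mitotic genes are shown because a SOX9 peak lay over the 5′ edge of each of these loci in at least 1 list (given with the peaks further on). Sequences are from RefSeq on build GRCm38.p6, 5′ to 3′ on the gene's strand, for chr2:164769679-164769928 (+, Ube2c), chr11:117848987-117849236 (+, Birc5), chr9:70421555-70421804 (-, Ccnb2) and chr2:127831860-127832109 (-, Bub1). Capitals mark, on either strand, the CHR (spelled TTTGAA in the usual form and TTCGAA in the other form searched), the CCAAT box and E2F motifs. For E2F, the spellings searched were TTCCCGC in the first place, then the variant TTTGGCG and finally the variant TTTCCCG.
Ube2c: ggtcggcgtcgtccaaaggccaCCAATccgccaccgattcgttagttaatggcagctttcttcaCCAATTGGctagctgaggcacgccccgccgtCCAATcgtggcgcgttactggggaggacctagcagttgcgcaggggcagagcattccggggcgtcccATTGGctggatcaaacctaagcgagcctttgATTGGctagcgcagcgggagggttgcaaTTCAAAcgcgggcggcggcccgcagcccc
Birc5: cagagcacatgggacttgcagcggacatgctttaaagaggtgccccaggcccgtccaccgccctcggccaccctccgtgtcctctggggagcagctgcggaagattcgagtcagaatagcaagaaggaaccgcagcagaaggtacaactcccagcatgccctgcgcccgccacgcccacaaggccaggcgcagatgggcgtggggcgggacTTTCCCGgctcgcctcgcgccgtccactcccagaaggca
Ccnb2: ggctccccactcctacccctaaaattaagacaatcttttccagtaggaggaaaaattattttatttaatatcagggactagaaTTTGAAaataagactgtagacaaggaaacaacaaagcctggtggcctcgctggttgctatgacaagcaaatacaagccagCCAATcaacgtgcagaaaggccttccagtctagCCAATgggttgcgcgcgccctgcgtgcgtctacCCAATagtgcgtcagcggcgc
Bub1: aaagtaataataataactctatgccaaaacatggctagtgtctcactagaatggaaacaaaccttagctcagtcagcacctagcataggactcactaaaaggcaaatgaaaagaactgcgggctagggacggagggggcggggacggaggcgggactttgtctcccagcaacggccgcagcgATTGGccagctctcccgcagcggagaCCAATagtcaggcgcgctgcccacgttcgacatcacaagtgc
Ube2c held 6 CCAAT boxes, of which 2 overlap by 2 bases on opposite strands, and a CHR on the other strand, whose first base as printed lies 29 bases before the start. Ccnb2 held 3 CCAAT boxes and a CHR, Bub1 held 2 CCAAT boxes, and Birc5 held only an E2F motif. A SOX motif (ACAAAG), left in lower case, was also found in Ccnb2 and, on the other strand, in Bub1.

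Over the 35 members with a RefSeq promoter in the table used (40 promoters in all), 62.5% of promoters held CCAAT, against 33.8% of all 32851 promoters of that length and 35.2% of the 10803 promoters of tested genes. CHR was found in 25% of members' promoters against 17.1% and 12%, and E2F motifs in 25% against 6.65% and 11.5%. The SOX motif was found in 25%, below the 29.6% of all promoters and above the 20.0% of tested genes. For SOX, the spelling ACAAAG was searched together with the variant ACAATG and also the variant AACAAT. Among 10 mitotic genes with a promoter, 9 held CCAAT and 5 held both CCAAT and CHR: Ccnb2, Cdc20, Mki67, Top2a and Ube2c. Replication genes held E2F motifs in 5 of 11 (Cdc6, Mcm5, Mcm6, Mcm7 and Uhrf1). A match is a description of these letters, not a site of binding. Mcm4, Ccna2, Aurkb, Ccnd1, Ccnd2, Ccne2, Cdkn1c, Rb1 and E2f4 had no entry that matched.

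Among G1 genes, Cdk4 was the highest, its mean at the 95.2 percentile of tested genes. Its partners, the D-type cyclins, were all present. Ccnd3 stood at 37.5, 37.6, 45 and 46.1 FPKM, Ccnd1 at 29.2, 36.2, 28.0 and 17.0, and Ccnd2 at 17.5, 16.6, 8.06 and 8.12. Ccnd2 in replicate 2 was thus lower than in replicate 1 in both genotypes. Cdk6, the other kinase of D-type cyclins, was low at 3.22, 3.69, 2.13 and 2.07 FPKM. Cdk2, the kinase of cyclins E and A, stood at 17.7, 17.4, 13.2 and 12.5 FPKM. Its cyclins of late G1 were near 1 FPKM, Ccne1 at 0.758, 0.901, 0.478 and 1.10 and Ccne2 at 1.73, 1.62, 1.42 and 1.07. Cdk6, Cdk2 and Ccne2 were lower in replicate 2 than in replicate 1, with no overlap. The Cdk4 promoter (chr10:127063285-127063534, +, GRCm38.p6) is shown as a contrast to the mitotic ones, since a SOX9 peak of HFSC list 2 lay over its 5′ edge and none of the CHR, CCAAT or E2F motifs was found in it.
Cdk4: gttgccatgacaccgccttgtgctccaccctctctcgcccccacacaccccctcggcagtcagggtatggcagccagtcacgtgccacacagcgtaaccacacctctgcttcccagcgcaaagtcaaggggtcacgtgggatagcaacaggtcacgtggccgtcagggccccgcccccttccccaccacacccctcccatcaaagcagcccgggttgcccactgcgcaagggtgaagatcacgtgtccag

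Of the 6 CDK inhibitors in the set, Cdkn1b (p27) was the highest, at 37.6, 52.2, 32.2 and 47.5 FPKM, a mean at the 81.7 percentile. Both cKO libraries lay below both controls. Cdkn1a (p21), a CDK inhibitor outside the set, was higher than Cdkn1b in each library, at 228, 145, 129 and 155 FPKM. Cdkn1c (p57), the other CIP/KIP gene of the set, stood at 5.06, 4.35, 11.6 and 7.55 FPKM. Of the INK4 genes, whose products bind CDK4 and CDK6, Cdkn2b (p15) stood at 3.08, 2.78, 5.17 and 6.54, Cdkn2c (p18) at 4.57, 4.76, 4.96 and 7.57, and Cdkn2d (p19) at 7.69, 6.65, 6.96 and 9.17. Cdkn2c and Cdkn2d were thus close in 3 libraries and highest in control 2. Cdkn2a, which encodes p16 and p19Arf, was listed at 0 in 3 libraries and at 1.02 FPKM in cKO 2.

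Of the pocket protein genes, Rbl2 and Rb1 stood above the median member in every library, and Rbl1 only in replicate 1. Rbl2 (p130), the pocket protein typical of resting cells, stood at 25.9, 28.0, 10.6 and 14.2 FPKM. Rb1 stood at 18, 18.5, 10.4 and 9.38, and Rbl1 (p107) at 8.09, 5.99, 3.18 and 4.12. All 3 were higher in replicate 1 than in replicate 2, with no overlap. Of the E2F factors, the repressor E2f4 stood at 14.2, 13.8, 16 and 14.1 FPKM, and the activator E2f1 at 0.774, 0.973, 2.38 and 0.866. Gadd45a, a stress gene whose product slows the G2 to M step, stood at 7.21, 4.06, 8.28 and 4.17 FPKM, and both cKO libraries lay above both controls. In bulk RNA, fewer cells that express a gene and less RNA per cell cannot be told apart.

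The comparison of genotypes asks which cell cycle genes differ between the libraries labelled cKO and the controls. No member passed the threshold. With genotype alone in the model (limma on log2(FPKM + 1), Benjamini-Hochberg adjustment over 14455 genes), 0 genes were called (0% of those tested), 93 had an unadjusted p under 0.05, and no member was among these 93. With the replicate number as a block, 41 genes were called (0.284%), 15 higher (0.104%) and 26 lower (0.18%) in cKO, and again 0 of 40 members. In that fit 1648 genes (11.4%) had an unadjusted p under 0.05, and 4 members did. These were Gadd45a, Rrm2, Cdkn1b and Pcna.

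Gadd45a had the largest mean difference of the 40, 0.77 ± 0.18 (moderated SE, n = 2 per group, adjusted p = 0.249 in limma with the block), with 0.70 in the replicate 1 pair and 0.84 in the replicate 2 pair. Without the block its SE was 0.32 and its adjusted p 1.00. Rrm2 differed by 0.71 ± 0.18 (adjusted p = 0.279), from 1.01 in the first pair and 0.41 in the second. Cdkn1b differed by -0.51 ± 0.13 (adjusted p = 0.279), from -0.46 and -0.55. Pcna differed by 0.34 ± 0.13 (adjusted p = 0.400), from 0.24 and 0.44. Each of these 4 went the same way in both pairs, which a small p in the blocked fit largely requires. None passed the adjusted threshold.

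Across the 40 tested members the median difference was 0.07, against -0.01 for all tested genes. Over the 44, 12 were higher in cKO in both pairs, 9 lower in both, 22 went opposite ways, and Cdkn2a was at 0 in both libraries of 1 pair. Among tested genes 28.4% were higher and 29.6% lower in both pairs. Both cKO values lay above both controls for 3 members, Pcna, E2f4 and Gadd45a, all tested (5.47% of tested genes). They lay below for 4, Cdc6, Uhrf1, Ccne1 and Cdkn1b, of which 3 of 40 were tested, all but Ccne1 (8.42% of tested genes).

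In 8 of 12 mitotic genes the pairs went opposite ways, among them Aurkb (-0.19 and 1.04), Ube2c (-0.34 and 0.73), Ccna2 (-0.35 and 0.60) and Ccnb1 (0.12 and -0.53). The summed level of the 12 differed between cKO and control by 0.07 in the first pair and 0.29 in the second on the log2 scale. Summed over the 12 replication genes, cKO and control had 189 and 160 FPKM in the first pair and 182 and 142 in the second. Without Pcna and Rrm2 the other 10 had 74.9 and 78.8 in the first pair and 93.4 and 77.7 in the second. The 6 CDK inhibitors of the set summed to 58.0 and 70.8, and to 61.9 and 78.3. For these the controls were higher in both pairs, with Cdkn1b the largest term. Cdkn1a, outside the set and not in these sums, was larger and went opposite ways, at 228 and 145, then 129 and 155 FPKM. Ccnd1 lay 0.30 below its control in the first pair and 0.69 above it in the second.

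**Figure D2:**
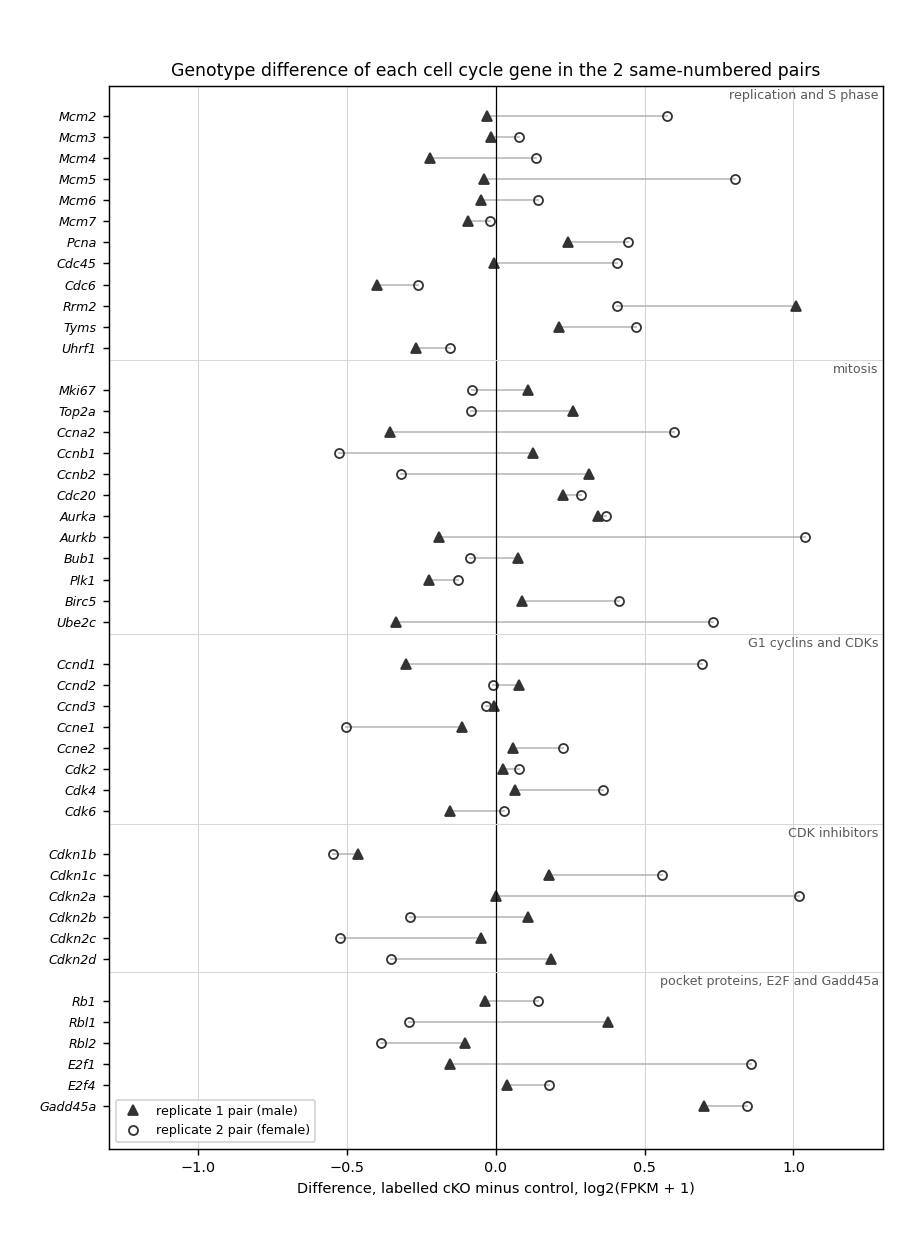
Difference of each of the 44 genes between cKO and control, on the log2(FPKM + 1) scale on the x axis, in the replicate 1 pair (triangles, male) and the replicate 2 pair (circles, female), joined by a line. Gadd45a lies right of 0 in both pairs (0.70 and 0.84) and Cdkn1b left of 0 in both (-0.46 and -0.55), and 22 genes have 1 point on each side.

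Replicates differed far more than genotypes. In replicate 2 (female, P80) against replicate 1 (male, P75), 10 of 40 tested members were called, 5 higher and 5 lower, beside 43.3% of all tested genes (22.4% higher and 20.9% lower). The 5 lower were Rbl2, Ccnd2, Rb1, Rbl1 and Mcm4, and the 5 higher Cdkn1c, Cdkn2b, Cdk4, Birc5 and Tyms. All 3 pocket protein genes were lower and 2 of 6 CDK inhibitors were higher. Without cKO 1 no member and 0 genes were called, and without control 1 no member and 1 gene.

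Rbl2 was lower by the largest amount, with a difference of -1.07 ± 0.18 (limma, adjusted p = 0.00627), and Ccnd2 differed by -0.99 ± 0.14 (adjusted p = 0.00497). Rb1 differed by -0.82 ± 0.15 (adjusted p = 0.00745), Rbl1 by -0.78 ± 0.22 (adjusted p = 0.0294) and Mcm4 by -0.72 ± 0.16 (adjusted p = 0.0155). These are 3 pocket proteins, a D-type cyclin and a helicase subunit. On the other side, Cdkn1c differed by 0.87 ± 0.23 (adjusted p = 0.0263), Cdkn2b by 0.80 ± 0.20 (adjusted p = 0.0205) and Cdk4 by 0.76 ± 0.18 (adjusted p = 0.0175). Birc5 (0.73 ± 0.23, adjusted p = 0.0438) and Tyms (0.72 ± 0.20, adjusted p = 0.0312) completed the higher group. With genotype as a term in the model, Cdc20 (adjusted p = 0.0434, higher), Rrm2 (0.0117, lower) and Cdk2 (0.0477, lower) were added, and 7221 genes were called (50% of those tested, 25.8% higher and 24.1% lower). Mki67, at -0.53 ± 0.23, was not past the threshold (adjusted p = 0.113).

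Both replicate 2 values lay above both replicate 1 values in 16 of 44 members, 14 of them tested (37.9% of tested genes), and below in 12 (37.5%). Of the 12 mitotic genes, 8 were in the first group and 2, Mki67 and Top2a, in the second.

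Which calls were made depended on the scale. FPKM sums were larger in replicate 2, and rescaling each library to the same sum (TPM, transcripts scaled to a common total) moved the median of all tested genes to -0.51 and that of the members to -0.39. On that scale 52.1% of tested genes were called, 9.37% higher and 42.7% lower, and 12 members were called, all lower: Rbl2, Ccnd2, Rb1, Rbl1, Rrm2, Mcm4, Ccnd1, Cdk6, Cdk2, Mki67, Top2a and Pcna. Cdk4 differed by 0.19 there (adjusted p = 0.305), Cdkn1c by 0.39 (0.176), Cdkn2b by 0.37 (0.251), Birc5 by 0.36 (0.264) and Tyms by 0.20 (0.406), each still above 0. They lay from 0.71 (Cdk4) to 0.90 (Cdkn1c) above the median of all tested genes on that scale. Rescaling shifts all genes of a library nearly alike, so these distances largely repeat those on deposited FPKM and are no separate support. The 12 mitotic genes summed to 42.6, 42.6, 41.5 and 38.7 TPM, so that their higher FPKM sum in replicate 2 was not seen on this scale. Relative to other genes they changed little between scales. The median difference of the tested mitotic genes was 0.13 in TPM, against -0.51 for all tested genes. As deposited it was 0.47, against -0.0013. With genotype as a term on that scale, Cdkn1b and E2f4 were added as lower, beside 8539 of 14455 genes called. With quantile normalization 10 members were called (41.8% of genes), without Rbl1 and Cdk4 and with Cdc20 and Ube2c. With genotype as a term there, 13 were called (beside 6697 of 14455 genes), adding Cdkn1b, Pcna and Rrm2 as lower. With each library centred on its median 14 were called (43.3% of genes), 10 of them higher, and there 27.2% of genes were higher and 16% lower. The 10 included Cdkn1c, Cdkn2b, Cdk4, Birc5 and Tyms, and Rbl1 was not called there. With no filter on low values 3 of 44 members were called, Ccnd2, Rb1 and Rbl2, beside 3822 of 24860 genes.

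**Figure D3:**
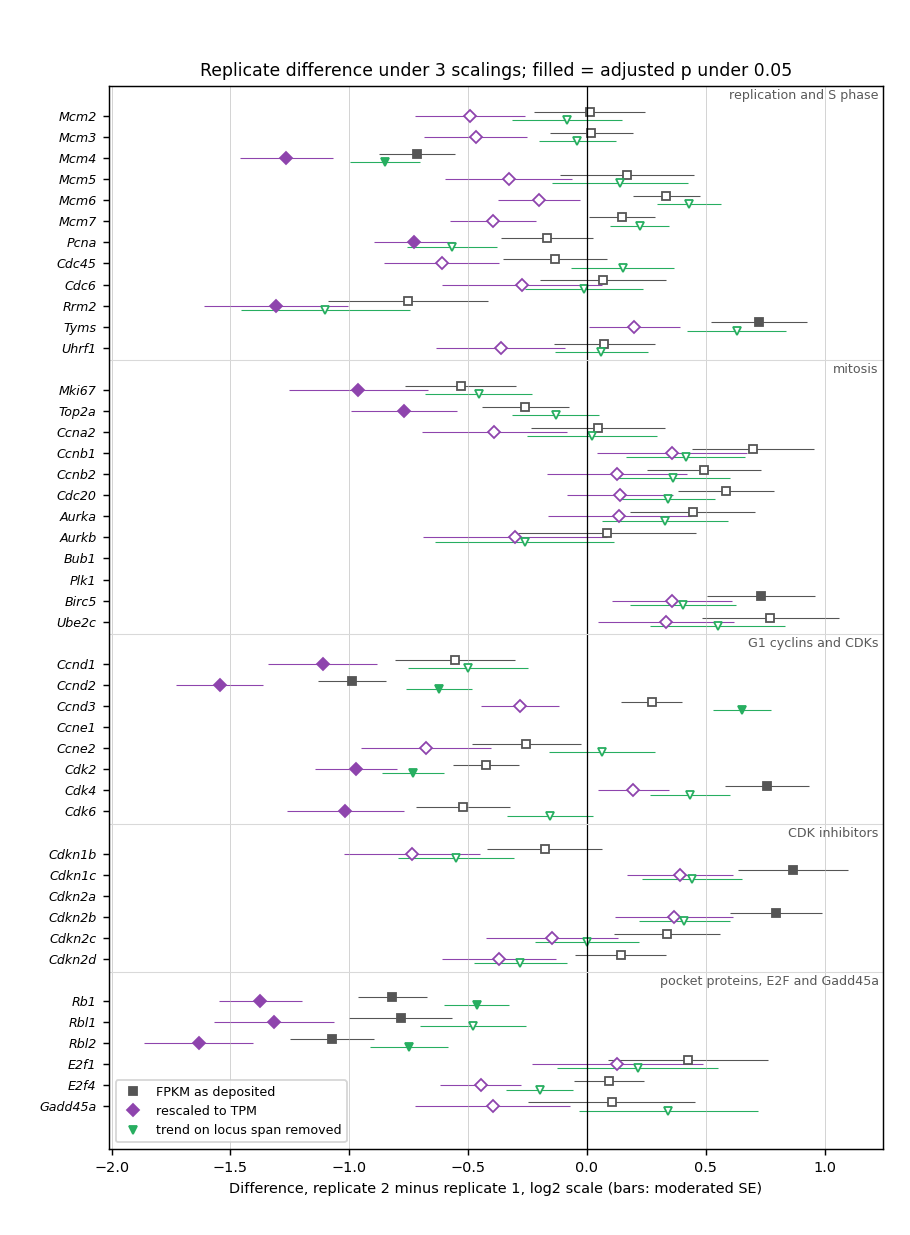
Difference between replicate 2 and replicate 1 for the tested members on the log2 scale (x axis), with deposited FPKM (squares), TPM (diamonds) and FPKM with the trend on locus span removed (triangles). Bars are moderated SEs and filled marks have an adjusted p under 0.05. Ccnd2, Rb1, Rbl2 and Mcm4 are filled and left of 0 in all 3, and no diamond to the right of 0 is filled.

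The replicate difference also moved with the span of a gene's locus. In 5 groups of tested genes from the shortest to the longest span, the median difference was 0.54, 0.20, -0.08, -0.31 and -0.38. Members called higher had short loci, from 2.70 kb for Cdkn1c to 15.4 kb for Tyms, and 4 of the 5 called lower had long ones: 58.6 kb for Rbl1, 64.4 kb for Rbl2, 86.6 kb for Ccnd2 and 203 kb for Rb1. Mcm4, at 13.5 kb, was the exception. With the trend on span removed in each library, 6 members were called (36% of genes, 18.5% higher and 17.5% lower): Ccnd2, Cdk2, Mcm4, Rb1 and Rbl2 lower, and Ccnd3 higher (0.65, adjusted p = 0.0143). Cdk4 (0.43, adjusted p = 0.0943) and Cdkn1c (0.44, adjusted p = 0.154) were not called there. With genotype as a term as well, 11 of 40 members were called, beside 6023 of 14455 tested genes. Cdk4 (adjusted p = 0.0299) and Tyms (0.0214) joined as higher, and Cdkn1b (0.0180), Pcna (0.0148) and Rrm2 (0.0101) as lower. Span is that of the whole locus, introns included, and not the length of the transcript. Ccnd2, Rb1 and Rbl2 were called lower in replicate 2 as deposited, on the TPM scale, with quantile normalization, median centring, span removed and no filter, and Mcm4 in all of these but the last.

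**Figure D4:**
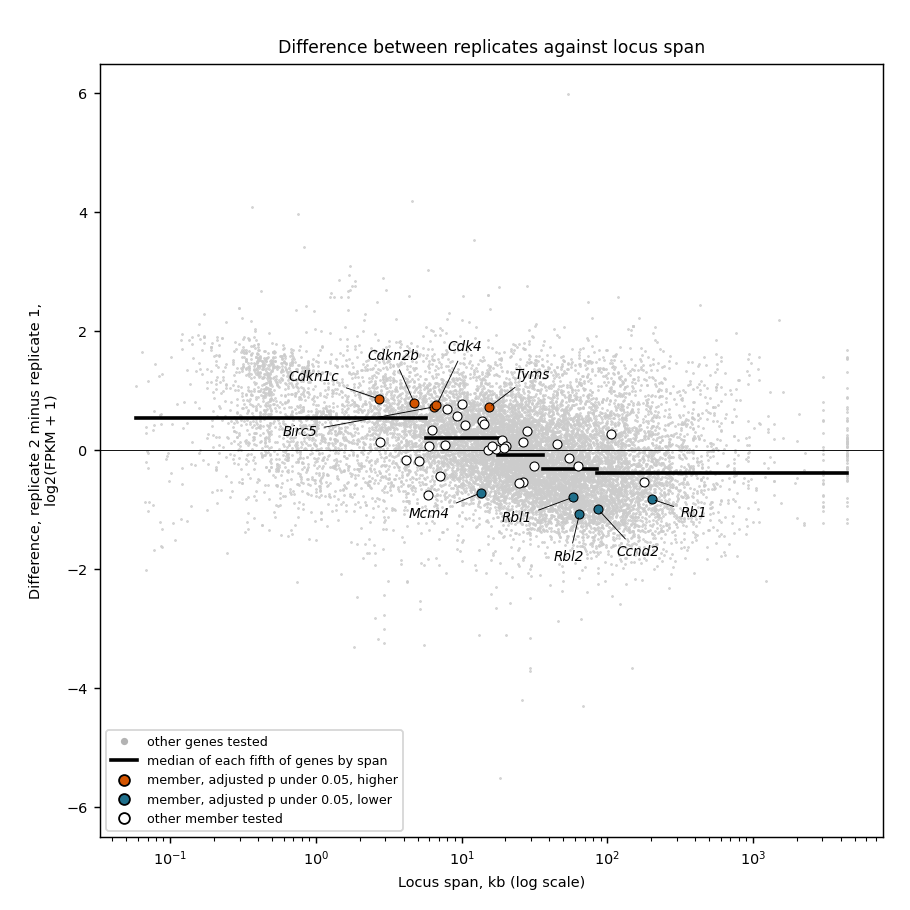
Difference between replicate 2 and replicate 1 on the log2(FPKM + 1) scale (y axis) against the span of the locus in kb (x axis, log scale) for 14455 tested genes (grey) and 40 members (circles), with the median of each of 5 groups of genes by span as bars. The bars step down from 0.54 to -0.38, and Rbl2, Ccnd2, Rb1 and Rbl1 lie below the bar of their group.

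Cell type markers moved with the replicates as well. These counts stand beside 22.4% of tested genes called higher and 20.9% lower. Of 5 differentiated epidermis markers, 2 (Lor and Ivl) were called higher in replicate 2, and the sums ran from 2512 to 2651 FPKM in replicate 1 and from 4669 to 7293 in replicate 2. Krt1, of the same list, differed by -0.24 and was not called. On the TPM scale 1 of these 5 was called higher and 1 lower. Of 7 immune markers, 2 of the 4 tested were higher (sums of 14.1 to 15.8 and 38.1 to 39.6 FPKM), with Ptprc, the pan-leukocyte marker, at 0.390 or less in every library. Of 5 sebocyte markers, 2 of 4 tested were lower (23.2 to 49.2 and 6.86 to 10.5 FPKM). Of the 8 bulge markers, 4 were lower: Lgr5, Itga6, Tcf7l1 and Nfatc1. These 4 have long loci, of 137, 113, 163 and 107 kb, while Lor and Ivl span 2.9 and 2.8 kb. Of the bulge markers not called, Cd34 spans 99.1 kb, Lhx2 30.5, Sox9 5.54 and Krt15 4.19. The part of locus span in the marker differences was not tested. Of 6 hair germ and matrix markers listed (summing to 57.5 to 62.7 and 38.0 to 39.4 FPKM), 3 were tested and 1, Cdh3, was lower, at 43.4, 43.2, 25.9 and 21.8 FPKM. Shh was at 0 in all libraries. For fibroblast markers the sums were 16.9 to 22.5 and 8.64 to 22.4 FPKM, with 0 called. Their part in the members' differences was not tested.

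Other genes of the same pathways were taken from lists. Of 33 further replication genes, 31 were tested. None was called between genotypes, and between replicates 4 were higher and 2 lower, beside 43.3% of all tested genes called (22.4% higher and 20.9% lower). The 4 with the smallest p were higher in replicate 2: Rfc4 (9.65, 10.03, 28.4 and 20.7 FPKM) and Rfc3 (9.56, 13.3, 29.8 and 17.9), subunits of the clamp loader of PCNA, Gins4 of the helicase, and Orc6 of the origin recognition complex. On the TPM scale 1 was higher and 7 lower, beside 9.37% and 42.7% of all tested genes. The same shares apply to the next lists. Of 34 mitotic genes listed, 25 were tested, none was called between genotypes, and 2 were higher in replicate 2. Cdk1, the mitotic kinase, stood at 2.74, 3.25, 6.54 and 6.79 FPKM (difference 0.94, limma adjusted p = 0.00916), and its small partner Cks2 differed by 0.84 (adjusted p = 0.0164). Cenpa and Cks1b were next, with adjusted p of 0.0585 and 0.0640. On the TPM scale 0 were higher and 3 lower. Of 32 genes of cell cycle control, 29 were tested and 1 was higher and 3 lower in replicate 2. Dyrk1a, the kinase that starts assembly of the repressor complex of RBL2 and E2F4, stood at 21.7, 20.7, 8.54 and 8.81 FPKM. Tfdp2, a partner of E2F factors, stood at 9.5, 8.56, 3.76 and 3.92, and Tob1, which restrains proliferation, at 121, 86.5, 48.8 and 48.1. These 3 were lower, and Mnat1 of the CDK-activating kinase was higher by 0.64. On the TPM scale 0 were higher and 14 lower.

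Between genotypes, with the replicate block, the smallest p among these lists belonged to Cdc25b, a phosphatase that activates CDK1 (35.1, 55.2, 25.9 and 34.6 FPKM, difference -0.52 ± 0.14, limma adjusted p = 0.30), and Gadd45b, a relative of Gadd45a (20.9, 12.5, 32.5 and 24.7, 0.54 ± 0.15, adjusted p = 0.329). Pttg1 (securin) differed by -0.67 and Foxm1, an activator of mitotic genes, by 0.65. Cdca3 differed by -0.46, Gadd45g by 0.78, Btg1 by 0.32 and Tfdp1 by -0.26. Among replication genes, Gins1 differed by 0.50, Prim2 by 0.45, Pola1 by 0.48 and Rpa2 by -0.29. None of these 12 was called.

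SOX9 peaks were compared with the loci to ask which of these genes lie near binding. The lists hold 8181 (HFSC list 1), 2989 (HFSC list 2) and 5209 (IFE list) peaks, with no height or score. Within 10 kb of a locus (at least 1 bp of overlap, build mm9, with strand for the 5′ edge from RefSeq), 15 of 44 members had a peak in HFSC list 1 (34.1%, exact 95% interval 20.5 to 49.9%), against 34.9% of tested and 22.6% of all listed genes. In HFSC list 2, 14 members did (31.8%, against 24.2% and 14.4%), and in the IFE list 19 (43.2%, interval 28.3 to 59.0%, against 36.3% and 22.5%). Both HFSC lists had a peak near 9 members (20.5%, interval 9.80 to 35.3%, against 17.5% and 10.6%). These shares lie near that of tested genes, which falls inside the interval of each. Intervals cover counting error only.

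The 9 members were Mcm4, Mcm7, Uhrf1, Birc5, Ube2c, Ccnd3, Cdk2, Rb1 and Rbl2. At 7 of them the IFE list had a peak too (14.5% of tested genes had a peak in all 3 lists), and Ccnd3 and Cdk2 were the other two. In 6, a peak of HFSC list 1 overlapped one of list 2: Mcm4, Mcm7, Uhrf1, Ube2c, Cdk2 and Rb1. At Ube2c, peaks lay over the 5′ edge of the locus in all 3 lists, at chr2:164595008-164595632, chr2:164595122-164595503 and chr2:164595166-164595613 (HFSC 1, HFSC 2, IFE). The promoter printed for Ube2c is on another build and was not aligned to these peaks. At Rb1, peaks lay over the upper edge of the locus (chr14:73725367-73726045 in HFSC list 1) and inside it (chr14:73713124-73713801) in all 3 lists. At Mcm4 a peak covered the upper edge in all 3, at chr16:15637279-15638103 in HFSC list 1. The peaks near Mcm7 that the lists shared lay 6610 bp above its locus in both HFSC lists, at chr5:138635290-138635844 in list 1. Those of Uhrf1 lay 2412 and 1976 bp above, and those of Cdk2 1249 and 1234 bp below. The peaks of Birc5, Ccnd3 and Rbl2 in list 1 lay elsewhere than those in list 2: at Ccnd3 both were inside the locus, with centres 3171 and 88396 bp from its 5′ edge.

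By role, peaks in both HFSC lists were found at 3 of 12 replication genes, 2 of 12 mitotic genes, 2 of 8 G1 genes, 0 of 6 CDK inhibitors and 2 of 6 of the pocket protein group. Of the CDK inhibitors, Cdkn1b had a peak in HFSC list 1, 5241 bp below its locus (chr6:134864426-134865176), and Cdkn2c had 2 in HFSC list 2 and 1 in the IFE list. Cdkn1c, Cdkn2a, Cdkn2b and Cdkn2d had none in any list. Ccnb2 and Cdk4 had a peak over their 5′ edge in HFSC list 2, at chr9:70269021-70269540 and chr10:126500220-126500817.

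Mitotic genes had peaks more often in the IFE list (8 of 12) than in the HFSC lists (5 and 3 of 12), a difference that was not tested. Members with a peak in the IFE list and in neither HFSC list were 8 of 44, against 9.69% of tested genes: Mcm2, Ccna2, Cdc20, Aurka, Aurkb, Bub1, Rbl1 and E2f1. At Bub1, Rbl1 and E2f1 that peak covered the 5′ edge of the locus, at chr2:127657494-127657909 for Bub1. Any list had a peak near 28 members (51.4% of tested genes), and 16 had none, among them Gadd45a, Rrm2, Tyms, Ccnd1 and Ccnd2. Of the 4 members with an unadjusted p under 0.05 between genotypes, Cdkn1b and Pcna thus had a peak, each in 1 HFSC list, and none had one in both.

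**Figure D5:**
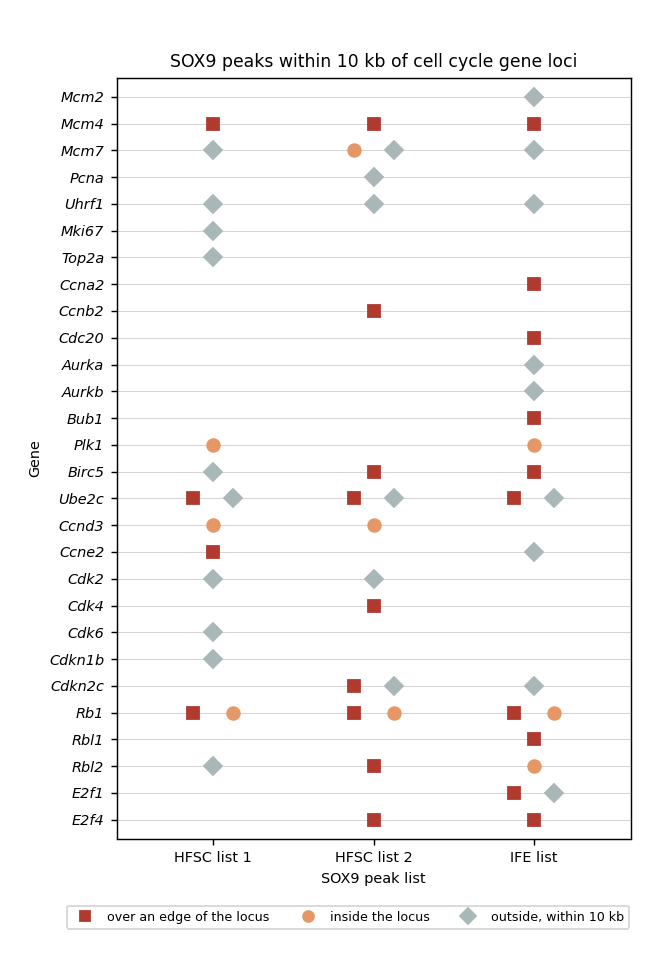
SOX9 peaks within 10 kb of the 28 members that had one (rows), in the 2 HFSC lists and the IFE list (columns). Squares are peaks over an edge of the locus, circles peaks inside it and diamonds peaks outside it. Ube2c, Mcm4 and Rb1 have squares in all 3 columns.

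Several loci overlap other genes of the table, and the strand setting of the counting is not given, so that reads and peaks there cannot be assigned to 1 gene with certainty. Among members named for calls or peaks these are Mcm7 (with Cops6, Ap4m1, Taf6 and 3 microRNA genes), Rb1 (Rcbtb2 and Lpar6 among them), Cdk4 (Tspan31), Ube2c (Tnnc2), Ccnd2 (9330179D12Rik), Ccnd3 (Bysl), Rbl1 (Gm14277), Rbl2 (Aktip), Tyms (Gm17448), Cdc20 (Elovl1), Ccna2 (Exosc9), Ccnd1 (Oraov1), Ccne2 (Ints8), Cdk6 (Gm17590), Top2a (SNORA32 and SNORA42) and Gadd45a (E230016M11Rik). Identifiers and mm9 loci of the members the results turned on are Rbl2 (ENSMUSG00000031666, chr8:93593955-93658364), Ccnd2 (ENSMUSG00000000184, chr6:127075796-127162429), Rb1 (ENSMUSG00000022105, chr14:73522843-73725629), Mcm4 (ENSMUSG00000022673, chr16:15623989-15637493), Cdk4 (ENSMUSG00000006728, chr10:126500589-126507317), Gadd45a (ENSMUSG00000036390, chr6:66985089-67030648), Cdkn1b (ENSMUSG00000003031, chr6:134870418-134875531) and Ube2c (ENSMUSG00000001403, chr2:164595397-164605467).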

How the data were processed

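RNA libraries were made with the TruSeq RNA kit, per the labels' protocols. Expression was deposited as FPKM in 1 table, per the file headers, and SOX9 peaks as 1 list per ChIP library, with positions only. According to the submitters' processing notes, Bowtie, TopHat, TopHat2 and Cufflinks 1.0.3 were used with build mm9. What each tool did, the strand setting and the peak caller are not stated in the sources used here. FPKM depends on the total of each library and on transcript length, so that abundant transcripts and library quality shift all other genes. Input DNA libraries were not used here.

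A value of 1 was added to each FPKM before the log2 step. Models were fitted with limma 3.58.1 (R 4.3.3), with empirical Bayes moderation, a mean trend and two-sided tests. P-values were adjusted by Benjamini-Hochberg at 0.05 across 14455 genes whose mean over the libraries reached 1 FPKM. Differences on this scale understate those of low genes. The scripts were tested on simulated data. The genotype fit had no block, since no source states one, and the replicate fit no genotype term. The replicate numbers pair the libraries by the labels (same sex, age and treatment days). Libraries that share a number also deviated together from their group means (correlation 0.812 over genes, which are no independent replicates), so the blocked fit is given beside the unblocked. With depth unknown, a gene at 0 is only listed at 0.

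All 44 members are accounted for. Genes of the pathway lists were named by the smallest p, up to 4 per list and contrast, and Cdkn1a as a CDK inhibitor of high level. Level was no general rule, since Btg2 of the same list was higher, at 663, 490, 301 and 419 FPKM. The members and lists were chosen with earlier results of these data known. Motifs were searched on both strands in the 250 bases before each RefSeq start (GRCm38.p6), leaving out 50 after it. Alternatives were other pseudocounts, filters, scalings, left-out libraries, the block and the locus span trend.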

Additional observations from a re-analysis of the deposited data

How the results depend on the processing

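No member was called between genotypes under any of the 18 other settings, and the number of genes called was 0 without the block under each other pseudocount, filter, scaling and trend. It was 41 with the replicate block, 9 with block and TPM, 3 with block and quantile normalization, 33 with block and pseudocount 0.1, 0 with block and no filter or span removed, and 2 to 41 with 1 library left out in turn, where a lone sample is assumed to vary like the other group. The median genotype difference of members was -0.037 on the TPM scale, with and without the block, where that of all genes was -0.13.

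Between replicates, the genes called ranged from 0 to 6296 with 1 library left out (0 without cKO 1, 1 without control 1) and the members called from 0 to 12. With no filter 3822 genes and 3 members were called, and 3293 genes and 4 members with the block added. With the locus span trend removed 5200 genes and 6 members were called (6023 genes and 11 members with the block). The members' median was -0.39 on the TPM scale, with and without the block. Among single members, 48 values newly passed the threshold and 63 no longer did, and 1 changed direction: E2f4, at 0.09, fell to -0.45 on the TPM scale with the block. Values never past the threshold changed sign 71 times in 28 genes between genotypes and 64 times in 19 genes between replicates. The cause of these changes was not tested.

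Of 44 members, 9 had a peak within 10 kb in both HFSC lists, beside 17.5% of tested genes. With the peak on the locus itself the count was 4 (12.7% of tested genes), and within 5 kb it was 8 (15.3%). Within 50 kb it was 21 (31.9%), and 20 members had a peak in at least 1 HFSC list (41.7%). Overlapping peaks were found at 6 members (15.6%), and peaks overlapping by 50% of each at 4 (14.7%). The settings that combine the block with another choice, and the removal of the span trend, were chosen after seeing the data. With 2 libraries a group and depth unknown, differences of genes near 1 FPKM, such as the mitotic genes, are the least certain.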
